A study of Mus musculus with 9 samples.

Results

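Deubiquitinases cut ubiquitin from proteins or trim ubiquitin chains, and a few of them work at the proteasome. Of the 15122 gene symbols with values, 8 were taken here: the UCH family (*Uchl1*, *Uchl3*, *Uchl5* and *Bap1*), the proteasome-bound *Usp14*, and *Usp5*, *Usp7* and *Otub1*. *Uchl1* was chosen by its measured level, which was far higher with Nrf1 than with LacZ, and the others because they are its family or related enzymes, so the values of *Uchl1* in that comparison are a description and carry no test. All 8 genes were found in each of the 3 tables of the series and passed the filter on low values, 10 or more normalized reads on average in 1 of the groups compared.

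The cells were neonatal rat ventricular cardiomyocytes (NRVMs) from Sprague-Dawley rats aged 1 or 2 days, plated, cultured for 48 h and then infected with an adenovirus at a multiplicity of infection of 50. The virus carried LacZ, a bacterial enzyme that served as the control, or mouse Nrf1 or mouse Nrf2. All groups were thus infected, and per the study's methods the viral vector drives its gene from a CMV promoter and also carries a red fluorescent protein. RNA was collected 48 h after infection and sequenced in 3 libraries per group, 9 in all. The labels do not say whether the libraries of a group came from separate cultures or animals, so the p-values below measure only the spread between these libraries, which may be technical.

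Ubiquitin is attached to proteins by a chain of ligating enzymes, and proteins that carry ubiquitin chains are bound and unfolded by the 19S cap of the proteasome and cut in its 20S core. Before a protein enters the core its ubiquitin is taken off by Psmd14, a metalloprotease of the 19S lid, while Usp14, which docks on Psmd2, and Uchl5, which docks on Adrm1, trim chains from bound proteins. Free chains are taken apart by Usp5. Nrf1 and Nrf2 are CNC family transcription factors that bind antioxidant response elements together with small Maf proteins, and Nrf1 is known as the factor that raises proteasome subunit genes when proteasome activity is lost.

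Whole reads per library were worked out from the deposited group means, and the libraries held 7874353 to 11960378 reads over the genes solved. Reads were divided by a size factor set over the 9 libraries, so that the values of a gene can be set beside each other across groups, and they are called normalized reads. Values of 3 libraries are given from the deepest library to the shallowest. *Nfe2l2*, the gene of Nrf2, had 67554 to 78770 normalized reads in Nrf2 libraries and 3399 to 3493 in LacZ libraries, and reads of the transgene and of the cells' own gene cannot be told apart there. *Nfe2l1*, the gene of Nrf1, was looked for but was not among the gene symbols with values, so its level in the Nrf1 libraries was not checked. Of 13 cardiomyocyte markers 12 were found, and their summed level was 196141 to 227424 in LacZ, 193215 to 195529 in Nrf1 and 221958 to 225796 in Nrf2 libraries. Within this list, 3 of the 12 passed the test as higher and 8 as lower with Nrf1 than with LacZ (25% and 66.7%). Among these were the sarcomere genes *Actc1* (1.54-fold) and *Myh7* (0.477-fold). With Nrf2, 6 passed as higher and 3 as lower (50% and 25%). Of all genes, 34.4% passed as higher and 32.5% as lower with Nrf1, and 28.6% and 26% with Nrf2. The 10 fibroblast markers summed to 123633 to 129726 in LacZ libraries and were lower in both other groups, at 31617 to 34105 with Nrf1 and 64437 to 69643 with Nrf2. Leukocyte markers were lower as well, 10 of 11 (90.9%) passing as lower with each factor. *Csf1r* went the other way and passed as higher with Nrf1, at a log2 ratio of 0.43 (limma adjusted p = 0.0037), though its libraries overlapped. The leukocyte list summed to 1749 to 2591 with LacZ, 1009 to 1059 with Nrf1 and 967 to 1067 with Nrf2. Of 8 endothelial markers 6 passed as lower and 1 as higher with Nrf1 (75% and 12.5%), and 5 and 1 with Nrf2 (62.5% and 12.5%). Of 7 smooth muscle and pericyte markers 4 passed as lower and 2 as higher with Nrf1 (57.1% and 28.6%). With Nrf2, 2 passed as lower and 2 as higher (28.6% each). The summed level of these 7 was higher with both factors than with LacZ. It was 20671 to 23427 in LacZ, 30686 to 30741 in Nrf1 and 25824 to 27467 in Nrf2 libraries. In RNA of a whole well, fewer cells of a type and less RNA per cell cannot be told apart, and the part of these marker levels in the results below was not tested.

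*Uchl1* encodes a ubiquitin hydrolase that is abundant in neurons and neuroendocrine cells. Its level was 489, 412 and 441 normalized reads in the LacZ libraries, 6286, 6237 and 6480 in the Nrf1 libraries, and 3138, 3410 and 3142 in the Nrf2 libraries. The groups did not overlap, with Nrf1 highest, Nrf2 between and LacZ lowest. In the authors' deposited group means *Uchl1* went from 421 with LacZ to 5956 with Nrf1, a ratio of 14.1 and a log2 ratio of 3.82 (SE 0.05, n = 3 per group), which is place 7 from the top among 11428 genes. With Nrf2 it rose from a mean of 450 to 3251, a log2 ratio of 2.85 (SE 0.06, n = 3 per group), place 89 of 11600. The Nrf2 comparison uses the same LacZ libraries as the one that led to the choice of *Uchl1*, so it too is given without a test. Between the factors the deposited mean was 6645 with Nrf1 and 3378 with Nrf2, a log2 ratio of -0.98 for Nrf2 over Nrf1, which again involves the Nrf1 libraries and is given without a test.

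Because *Uchl1* marks neurons in many tissues, other neuron and neuroendocrine genes were set beside it. Of 24 such genes 22 were found, and their summed level was 5289 to 5522 normalized reads in LacZ libraries, 3810 to 3902 in Nrf1 libraries and 5592 to 5644 in Nrf2 libraries. Most of the sum came from *Ncam1*, a cell adhesion gene, with a mean of 4491 ± 103 in LacZ, 2802 ± 95.7 in Nrf1 and 3340 ± 60.2 in Nrf2 libraries (SD, n = 3). Without it the list summed to 908 to 953 in LacZ, 995 to 1090 in Nrf1 and 2210 to 2373 in Nrf2 libraries. Among the genes that passed as higher with both factors were the neurofilament genes *Nefl*, at a mean of 25.3 ± 2.52 in LacZ, 81.5 ± 5.52 in Nrf1 and 148 ± 10.8 in Nrf2 libraries (SD, n = 3), and *Nefh*, at 101 ± 4.11, 169 ± 21.9 and 214 ± 16.8. *Map2*, which encodes a microtubule protein of dendrites, had a mean of 42.4 ± 4.61 in LacZ, 45.7 ± 6.79 in Nrf1 and 423 ± 17.1 in Nrf2 libraries (SD, n = 3). *Chga*, a secretory granule gene, was at 0 in LacZ and Nrf1 libraries, and *Snap25* was at 0 in LacZ libraries and *Chgb* at 0 in Nrf1 libraries. Of 15 neuron genes that passed the filter, 5 passed the test as higher and 6 as lower with Nrf1 (33.3% and 40%, beside 34.4% and 32.5% of all genes), and 7 passed as higher and 2 as lower with Nrf2 (46.7% and 13.3%, beside 28.6% and 26%), each compared with LacZ. The 6 lower with Nrf1 were *Stmn2* (log2 ratio -2.16), *Gap43* (-1.59), *Syt1* (-1.34), *Elavl2* (-0.82), *Ret* (-0.81) and *Ncam1* (-0.68). Apart from *Ncam1* these were low genes, with deposited LacZ means of 13.4 to 35.5 in that comparison. The 5 higher with Nrf1 were *Nefl* (1.69), *Nefh* (0.74), *Syn1* (0.51), *Nefm* (0.43) and *Tubb3* (0.21). Their deposited LacZ means were 23.8, 95.1, 34.1, 79.2 and 257 in that order, so *Nefl* and *Syn1* lay in the same low range. The part of neuronal cells in the level of *Uchl1* was not tested.

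**Figure D1:**
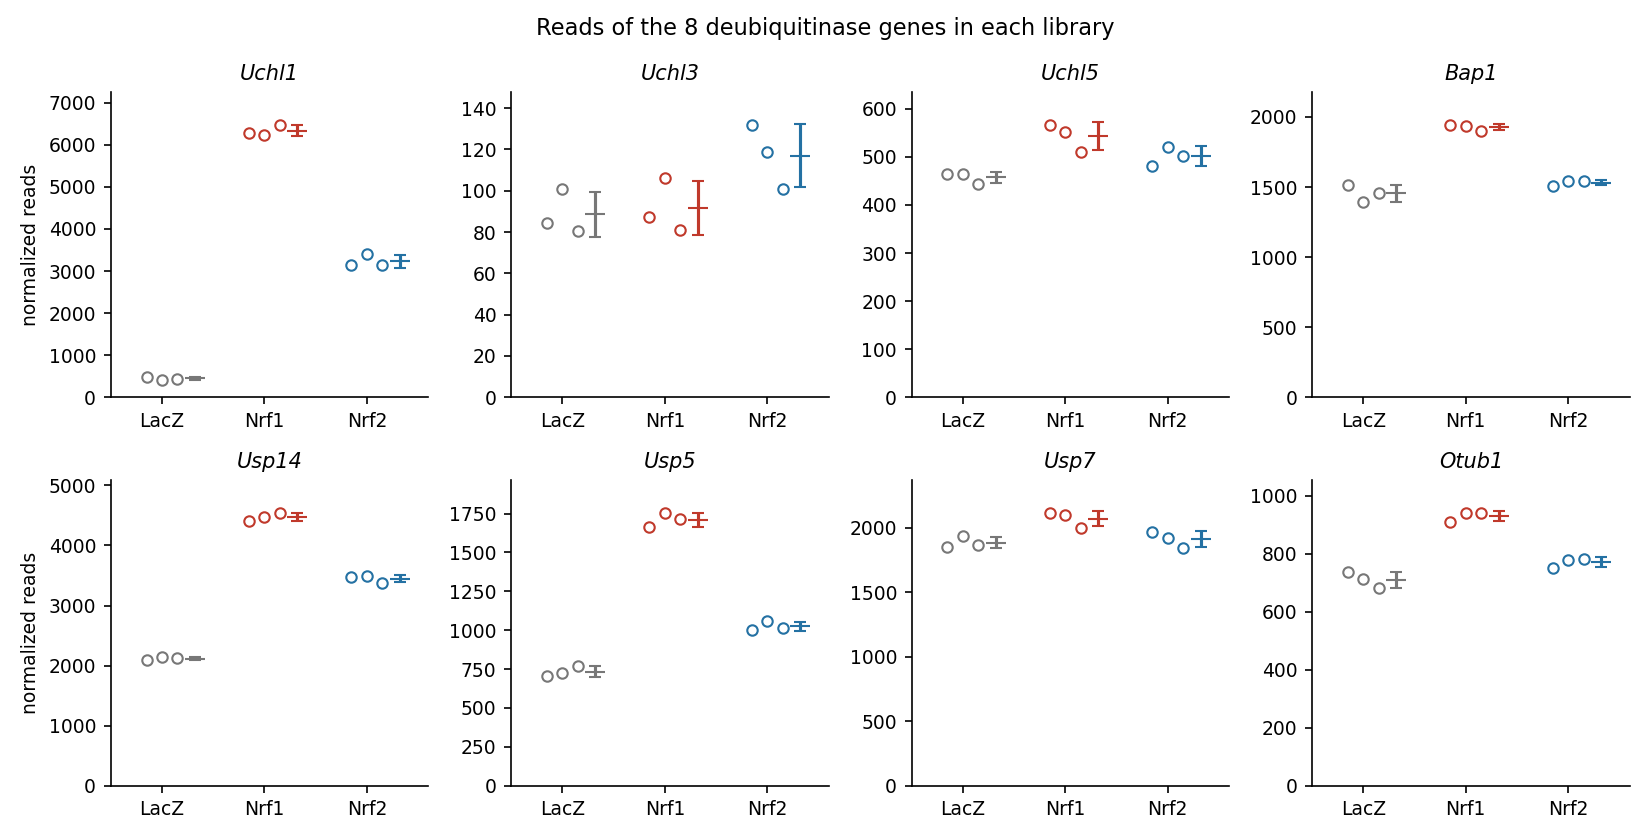
Normalized reads of the 8 genes in each of the 9 libraries, with open circles for single libraries from the deepest to the shallowest and a dash with bars for the group mean ± SD (n = 3); each panel has its own linear axis from 0. *Uchl1* sat between 6237 and 6480 with Nrf1 and between 412 and 489 with LacZ, while *Uchl3* and *Usp7* showed groups that overlapped or lay close together.

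The other genes of the UCH family moved far less. *Uchl3*, a close relative of *Uchl1* that removes ubiquitin and Nedd8 from small adducts, was the lowest in reads of the 8 genes, with 68 to 159 reads counted in a library. It had 84.4, 101 and 80.6 normalized reads with LacZ, 87.1, 106 and 81.2 with Nrf1, and 132, 119 and 101 with Nrf2. LacZ and Nrf1 libraries overlapped, and the log2 ratio of Nrf1 over LacZ was 0.04 (SE 0.14, limma adjusted p = 0.817). *Uchl3* rose with Nrf2 compared with LacZ by 0.40 on the log2 scale (SE 0.13, limma adjusted p = 0.0206), but this call rested on the full set of libraries. The adjusted p was 0.0536 without the deepest LacZ library, 0.076 without the shallowest LacZ library, 0.107 without the deepest Nrf2 library and 0.0602 without the middle one, and it was 0.0611 when the groups were scaled by their summed reads. It was also higher with Nrf2 than with Nrf1, by 0.35 (SE 0.13, limma adjusted p = 0.0258), and here too the call was lost without the deepest or the shallowest Nrf1 library (adjusted p = 0.0751 and 0.106) and without the deepest or the middle Nrf2 library (adjusted p = 0.135 and 0.062).

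*Uchl5* encodes the UCH enzyme of the proteasome, which is also a subunit of the Ino80 chromatin remodeller. Its level was 464, 465 and 444 normalized reads with LacZ, 567, 552 and 511 with Nrf1, and 481, 521 and 502 with Nrf2. Every Nrf1 and every Nrf2 library lay above every LacZ library, and the Nrf1 and Nrf2 libraries overlapped. *Uchl5* rose with Nrf1 by 0.24 on the log2 scale (SE 0.06, limma adjusted p = 0.00209), and the difference with Nrf2, 0.13 (SE 0.06, adjusted p = 0.0671), missed the threshold. The log2 ratio of Nrf2 over Nrf1 was -0.12 (SE 0.06, limma adjusted p = 0.0725), and the adjusted p was 0.0254 without the shallowest Nrf1 library.

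*Bap1* encodes the nuclear member of the family, a tumour suppressor that removes ubiquitin from histone H2A. It had 1516, 1395 and 1457 normalized reads with LacZ, 1945, 1933 and 1903 with Nrf1, and 1508, 1544 and 1544 with Nrf2. The Nrf1 libraries stood above the rest, while Nrf2 and LacZ libraries overlapped. *Bap1* rose with Nrf1 by 0.40 (SE 0.04, limma adjusted p = 3.97e-07), was lower with Nrf2 than with Nrf1 by a log2 ratio of -0.34 (SE 0.03, limma adjusted p = 4.49e-08), and had a log2 ratio of 0.07 for Nrf2 over LacZ (SE 0.04, limma adjusted p = 0.146).

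*Usp14*, the ubiquitin-specific protease bound to the 19S base, had 2085, 2139 and 2123 normalized reads with LacZ, 4413, 4478 and 4538 with Nrf1, and 3471, 3487 and 3383 with Nrf2. The spread within a group was small, with a coefficient of variation of 1.33 to 1.62%, and the groups lay far apart. *Usp14* rose with Nrf1 from a deposited mean of 1993 to 4209, a log2 ratio of 1.08 (SE 0.03, limma adjusted p = 2.69e-13). With Nrf2 it rose from 2128 to 3469, a log2 ratio of 0.71 (SE 0.04, limma adjusted p = 5.74e-10). The level with Nrf2 was lower than that with Nrf1, at a log2 ratio of -0.38 (SE 0.03, limma adjusted p = 2.98e-10).

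*Usp5*, which disassembles unanchored ubiquitin chains, had 703, 727 and 770 normalized reads with LacZ, 1663, 1752 and 1716 with Nrf1, and 1002, 1059 and 1014 with Nrf2. The groups were again separate, with Nrf2 nearer to LacZ than to Nrf1. *Usp5* rose with Nrf1 by 1.22 on the log2 scale (SE 0.05, limma adjusted p = 2.75e-12) and with Nrf2 by 0.48 (SE 0.05, limma adjusted p = 1.46e-06). Nrf2 over Nrf1 gave a log2 ratio of -0.74 (SE 0.04, limma adjusted p = 4.7e-12), the largest fall among the 7 genes tested.

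*Otub1*, an OTU family enzyme that cuts K48-linked chains and blocks the conjugating enzyme Ube2n, had 738, 713 and 683 normalized reads with LacZ, 910, 940 and 940 with Nrf1, and 751, 780 and 782 with Nrf2. It rose with Nrf1 by 0.38 (SE 0.05, limma adjusted p = 4.06e-06). With Nrf2 every library lay above every LacZ library, but the log2 ratio of 0.12 (SE 0.05, limma adjusted p = 0.0597) missed the threshold, and the adjusted p was 0.037 without the deepest LacZ library. Nrf2 over Nrf1 gave -0.28 (SE 0.04, limma adjusted p = 1.57e-05).

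*Usp7*, the enzyme that takes ubiquitin from Mdm2 and p53, had the smallest ratio between its highest and lowest group means. It had 1849, 1934 and 1869 normalized reads with LacZ, 2112, 2098 and 2001 with Nrf1, and 1970, 1923 and 1846 with Nrf2. Its log2 ratio of Nrf1 over LacZ was 0.13 (SE 0.04, limma adjusted p = 0.00756), but the call was lost when the ratios were centred on the median gene (0.08, adjusted p = 0.0887) or scaled by summed means (0.07, adjusted p = 0.138), settings that shift every gene by 0.05 and 0.06. The log2 ratio of Nrf2 over LacZ was 0.02 (SE 0.04, limma adjusted p = 0.66), and that of Nrf2 over Nrf1 was -0.12 (SE 0.03, limma adjusted p = 0.00595).

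The order of the group means from high to low was Nrf2, Nrf1, LacZ in *Uchl3* and Nrf1, Nrf2, LacZ in the other genes. The share of all genes with either order was not counted, and *Uchl1* was chosen for its rise with Nrf1. Some steps of this order did not pass the test, as given above for *Uchl3*, *Uchl5*, *Bap1*, *Otub1* and *Usp7*. Leaving out *Uchl1*, 6 of 7 genes passed the test as higher with Nrf1 than with LacZ and 0 as lower, where 34.4% of all 11428 genes passed as higher and 32.5% as lower, and the median log2 ratio of the 7 was 0.38 against 0.00 over all genes. The Nrf1 and LacZ libraries were apart in the same 6 genes, all with Nrf1 higher, as they were in 36.4% of all genes with Nrf1 higher and 34.3% with Nrf1 lower. By size, *Usp14* and *Usp5* were higher by more than 1.5-fold, as were 11.9% of all genes, while 18.1% of all genes and 0 of the 7 were lower by that much. The next genes under the fold of 1.5 were *Bap1* and *Otub1* at 1.32 and 1.31. With Nrf2, 3 of these 7 genes passed as higher than LacZ and 0 as lower, beside 28.6% and 26% of 11600 genes. These percentages depend on the scaling: of the genes that passed in the Nrf2 comparison, 52.4% were higher and 47.6% lower, and 38.5% and 61.5% when groups were scaled by summed reads. *Usp14* alone of the 7 exceeded a fold of 1.5 with Nrf2 (1.63), a size reached by 9.73% of all genes upward and 10.9% downward, and *Usp5* was just under it at 1.4. The libraries were apart in 5 of the 7, all with Nrf2 higher than LacZ, beside 31.6% of all genes with Nrf2 higher and 30.1% with Nrf2 lower. *Uchl3* was among these by a very small margin, its highest LacZ and lowest Nrf2 library each rounding to 101 normalized reads. In the direct comparison 5 of the 7 were lower with Nrf2 than with Nrf1 (*Usp5*, *Usp14*, *Bap1*, *Otub1* and *Usp7*) and *Uchl3* was higher, beside 29.8% lower and 28.8% higher of 11484 genes. *Usp5* was the 1 gene of the 7 lower by more than 1.5-fold, as were 5.15% of all genes, and 12.3% of all genes were higher by that much. In 5 of the 7 the libraries were apart with Nrf2 lower, beside 31.9% of all genes, and in 0 with Nrf2 higher, beside 31.7%.

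**Figure D2:**
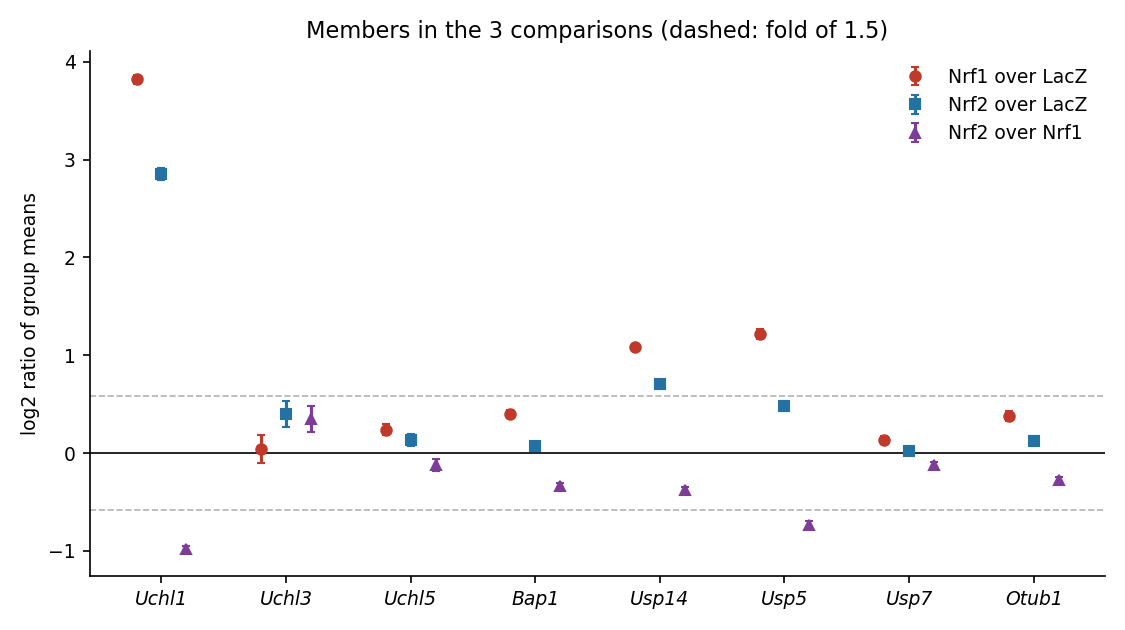
Log2 ratio of the deposited group means (y axis) for the 8 genes (x axis) in the 3 comparisons, with bars for the standard error from limma (n = 3 libraries per group) and dashed lines at a fold of 1.5 in either direction. *Uchl1* stands apart at 3.82 and 2.85, *Usp5* and *Usp14* follow at 1.22 and 1.08 with Nrf1, and the remaining genes stay within the dashed lines.

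The other deubiquitinase genes gave the setting for these values. Of 93 further symbols of the USP, OTU, Josephin, JAMM, MINDY and ZUFSP families, 71 were found and 69 passed the filter. The JAMM list includes relatives that lack protease activity, such as *Eif3f*. With Nrf1, 35 of the 69 passed as higher than LacZ, 11 passed as lower and 23 did not pass, a share of 50.7% higher and 15.9% lower beside the 34.4% and 32.5% of all genes, and the median log2 ratio was 0.14. Past a fold of 1.5 were 11 higher and 2 lower, 15.9% and 2.9%, beside 11.9% and 18.1% of all genes. With Nrf2, 24 passed as higher and 10 as lower than LacZ, 34.8% and 14.5% beside 28.6% and 26% of all genes, and the median log2 ratio was 0.03. Nrf2 over Nrf1 gave 14 higher and 35 lower, 20.3% and 50.7% beside 28.8% and 29.8% of all genes, with a median of -0.14.

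By family, 19 of 42 USP genes, 6 of 10 OTU genes, 6 of 11 JAMM genes and 2 of 3 Josephin genes passed as higher with Nrf1 than with LacZ, and 9, 0, 2 and 0 passed as lower. As shares, 45.2%, 60%, 54.5% and 66.7% were higher and 21.4%, 0%, 18.2% and 0% lower, beside 34.4% and 32.5% of all genes. Among genes averaging 100 or more normalized reads in LacZ or Nrf1 libraries, the highest log2 ratios of Nrf1 over LacZ were those of *Usp29* (1.41), *Psmd14* (1.21), *Josd1* (1.20), *Usp20* (1.00) and *Usp13* (0.97). *Usp13* is the closest relative of *Usp5*. It had 1793, 1738 and 1864 normalized reads with LacZ, 3541, 3527 and 3518 with Nrf1, and 3019, 2956 and 2877 with Nrf2, and it rose by 0.97 with Nrf1 (SE 0.04, limma adjusted p = 2.85e-12) and 0.72 with Nrf2 (SE 0.04, limma adjusted p = 1.68e-09). *Josd1*, a Josephin domain enzyme, rose with Nrf1 by 1.20 and with Nrf2 by 0.93 (limma adjusted p = 2e-11 and 3.4e-08). *Usp20* rose by 1.00 with Nrf1 and 0.32 with Nrf2 (limma adjusted p = 6.35e-11 and 0.00019).

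The lowest log2 ratios of Nrf1 over LacZ were those of *Usp18* (-4.43), *Usp36* (-0.72), *Usp49* (-0.47), *Usp31* (-0.34) and *Usp24* (-0.28). *Usp18* encodes an interferon-induced protease that takes the ubiquitin-like protein Isg15 from its targets. Its level was 1396, 1825 and 1574 normalized reads with LacZ, 63.4, 70.2 and 89.2 with Nrf1, and 571, 492 and 428 with Nrf2. It fell with Nrf1 by 4.43 on the log2 scale (SE 0.11, limma adjusted p = 1.72e-14) and with Nrf2 by 1.69 (SE 0.10, limma adjusted p = 2.92e-09), so that this gene stood lowest with Nrf1 where *Uchl1* stood highest. *Usp36*, a nucleolar enzyme, fell with both, by 0.72 and 0.55 (limma adjusted p = 1.36e-07 and 4.59e-06).

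**Figure D3:**
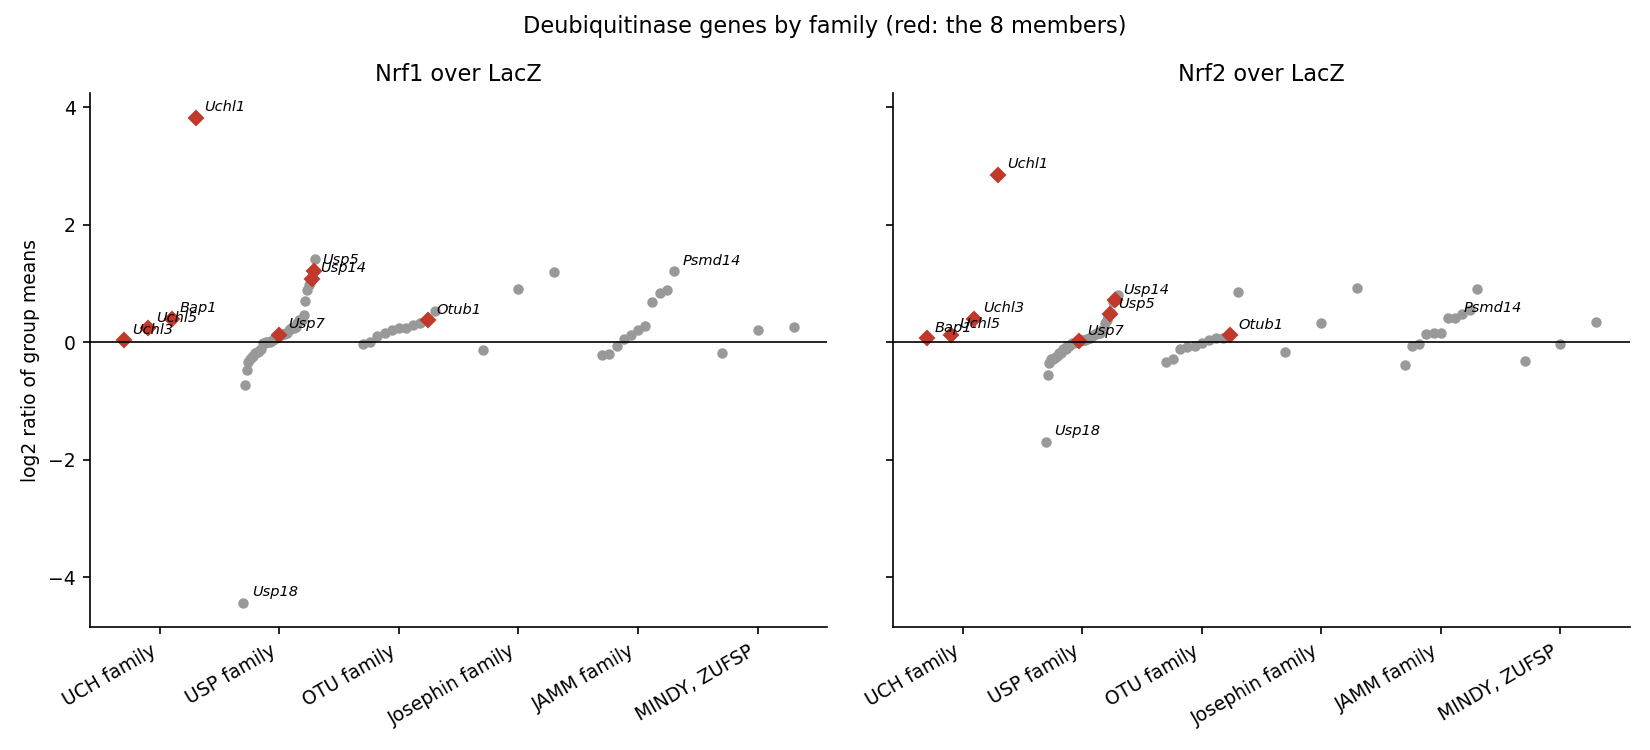
Log2 ratios of group means for deubiquitinase genes that passed the filter, by family and in rising order within each family, for Nrf1 over LacZ (left) and Nrf2 over LacZ (right), which share their LacZ libraries. Red diamonds are the 8 genes described and grey points the other 69; *Uchl1* lies highest in both panels, at 3.82 and 2.85, and *Usp18* lowest, at -4.43 and -1.69.

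The proteins that Usp14, Uchl5 and Psmd14 bind or serve were counted next. Of 14 such genes tested, 12 passed as higher and 2 as lower with Nrf1 than with LacZ, and 7 were higher by more than 1.5-fold. These are 85.7%, 14.3% and 50% of the list, beside 34.4%, 32.5% and 11.9% of all genes. With Nrf2, 10 passed as higher and 2 as lower, and *Psmd1* was the 1 gene higher by more than 1.5-fold. These are 71.4%, 14.3% and 7.14%, beside 28.6%, 26% and 9.73% of all genes. *Psmd14*, the lid metalloprotease, had 1056, 1010 and 1094 normalized reads with LacZ, 2411, 2439 and 2489 with Nrf1, and 1408, 1449 and 1333 with Nrf2, with log2 ratios to LacZ of 1.21 and 0.41 (limma adjusted p = 7.28e-13 and 4.53e-06). *Psmd2*, the docking subunit of Usp14, had 5133, 4842 and 5069 normalized reads with LacZ, 11853, 11952 and 12091 with Nrf1, and 5887, 5963 and 6054 with Nrf2, and its deposited mean rose 2.38-fold with Nrf1 and 1.19-fold with Nrf2 (limma adjusted p = 2.97e-14 and 2.17e-05). *Adrm1*, the receptor for Uchl5, had 1320, 1250 and 1269 normalized reads with LacZ, 2313, 2395 and 2343 with Nrf1, and 1403, 1415 and 1438 with Nrf2. It rose by 0.87 with Nrf1 and 0.15 with Nrf2 (limma adjusted p = 1.83e-11 and 0.00651), and the call with Nrf2 was lost when groups were scaled by summed reads (adjusted p = 0.185). The highest of this list with Nrf1 was *Psmd1*, with log2 ratios of 1.34 and 0.60.

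Set beside these subunits, the deubiquitinases of the proteasome differed in size. With Nrf1 the log2 ratio of *Usp14* (1.08) was near those of *Psmd14* (1.21) and of the median (1.10) of the 33 constitutive 26S subunit genes, while that of *Uchl5* (0.24) was below that of its receptor *Adrm1* (0.87). With Nrf2 the log2 ratio of *Usp14* was 0.71, and those of *Adrm1* and *Psmd14* were 0.15 and 0.41, beside a median of 0.31 over the subunits. Whether these ratios differ between genes was not tested. Of the 33 subunit genes, 33 passed as higher with Nrf1 and 30 with Nrf2 (100% and 90.9%, beside 34.4% and 28.6% of all genes), the extremes with Nrf1 being *Psmb3* (1.78) and *Shfm1* (0.25).

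**Figure D4:**
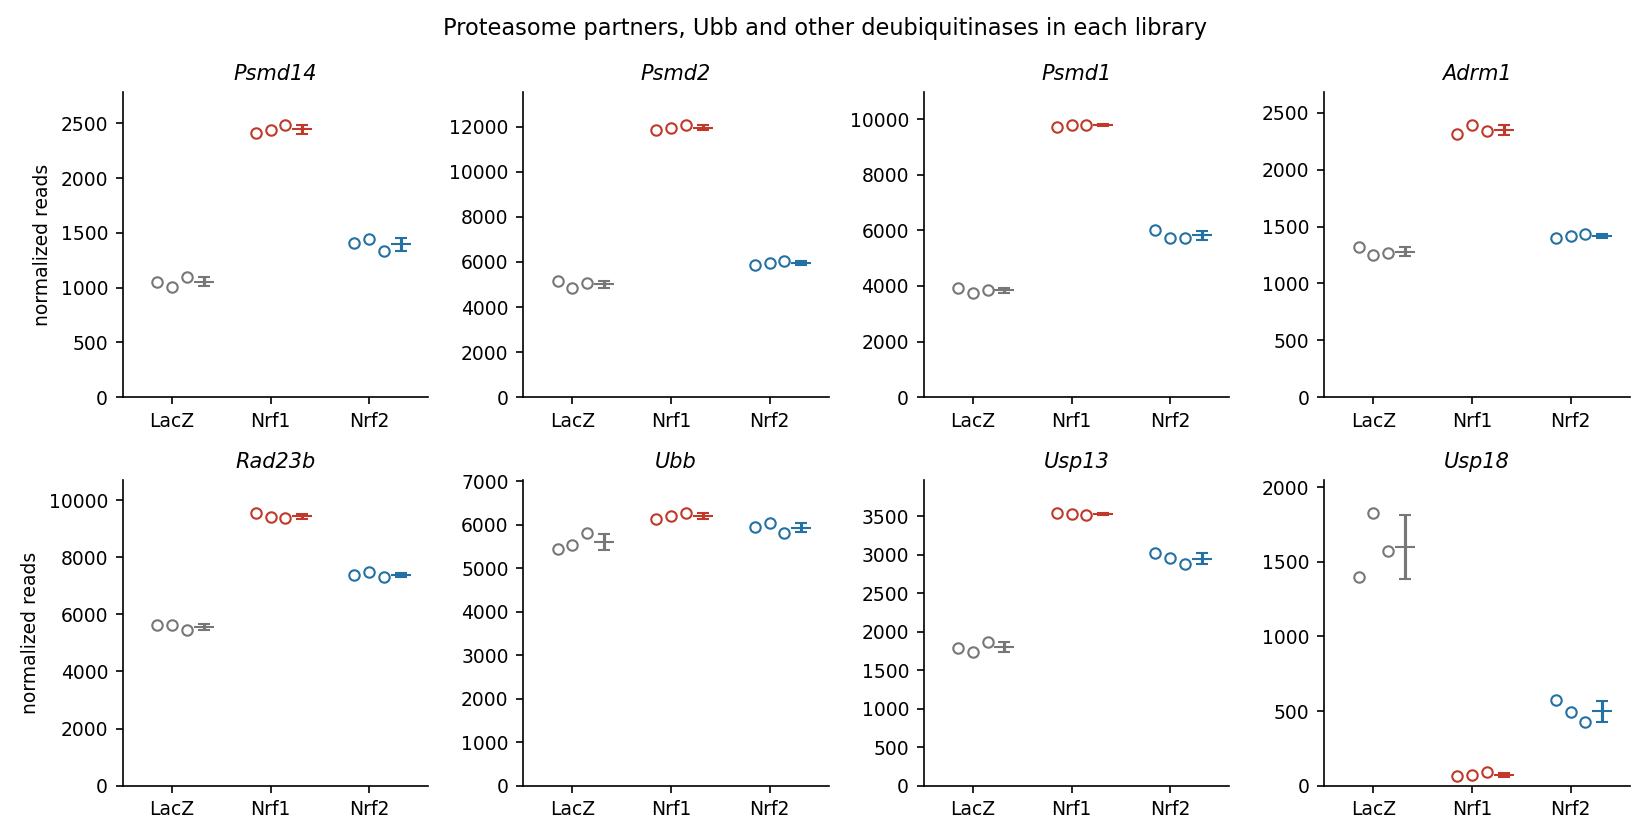
Normalized reads in each library for proteasome subunits (*Psmd14*, *Psmd2*, *Psmd1*), the Uchl5 receptor *Adrm1*, the shuttle factor *Rad23b*, the ubiquitin gene *Ubb* and the deubiquitinases *Usp13* and *Usp18*, drawn as circles for libraries and mean ± SD (n = 3) on linear axes from 0. The Nrf1 libraries are highest in all panels but that of *Usp18*, where they lie between 63.4 and 89.2.

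Ubiquitin itself is encoded by polyubiquitin genes and by fusions to ribosomal proteins, and these near-identical repeats can share reads, so their values are uncertain. *Ubb* had log2 ratios to LacZ of 0.14 with Nrf1 and 0.09 with Nrf2 (limma adjusted p = 0.00151 and 0.051), and *Rps27a* 0.29 and 0.56 (limma adjusted p = 0.034 and 0.000363). The call of *Rps27a* with Nrf1 was lost in 4 of 6 fits that left out 1 library and under both other scalings. *Nedd8*, the gene of the related modifier that Uchl3 also removes, rose with Nrf1 by 0.34 (limma adjusted p = 4.64e-05) and had a log2 ratio of 0.13 with Nrf2 (limma adjusted p = 0.0509), which gave an adjusted p of 0.0068 without the deepest LacZ library. The value of *Ubb* with Nrf2 gave 0.0328 without the shallowest LacZ library and 0.0395 with voom weights. No gene of this list exceeded a fold of 1.5.

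The partners of the other enzymes were counted in the same way, beside the 34.4% of all genes that passed as higher and 32.5% as lower with Nrf1, and 28.6% and 26% with Nrf2. Of 6 genes of the Bap1 complex, 2 passed as higher and 3 as lower with Nrf1 than with LacZ (33.3% and 50%), with *Hcfc1*, a chromatin cofactor, at a log2 ratio of 0.39 (limma adjusted p = 3.41e-06) and *Kdm1b*, a histone demethylase, at -0.76 (limma adjusted p = 1.04e-05). Of 12 Ino80 complex genes tested, 7 passed as higher and 1 as lower with Nrf1 (58.3% and 8.33%), from *Ruvbl2*, a helicase subunit, at 0.52 to *Nfrkb*, the subunit that binds Uchl5, at -0.50. With Nrf2, 3 and 2 passed (25% and 16.7%), and *Nfrkb* was again at -0.50 while *Ruvbl2* was at -0.04. Of 11 partners and substrates of Usp7, 3 passed as higher and 6 as lower with Nrf1 (27.3% and 54.5%), and *Mdm2*, the p53 ligase that Usp7 stabilises, fell by 0.62 with Nrf1 and 0.46 with Nrf2 (limma adjusted p = 2.91e-09 and 9.6e-07), while *Rnf2* was at 0.23 and -0.08. Of 7 partners of Otub1, 2 passed as higher and 1 as lower with Nrf1 (28.6% and 14.3%), with *Ube2n*, the conjugating enzyme it blocks, at 0.27 and 0.33 with the respective factors (limma adjusted p = 0.00796 and 0.00102) and *Ube2d1* at -0.23 and 0.01. The call of *Ube2d1* with Nrf1 (limma adjusted p = 0.0404) was lost without the deepest or the shallowest LacZ library (0.137 and 0.0771). It was also lost without the deepest or the middle Nrf1 library (0.126 and 0.137). With Nrf2, 0 genes of the Bap1 list passed as higher than LacZ and 2 as lower (0% and 33.3%). The counts were 2 and 6 in the Usp7 list (18.2% and 54.5%) and 1 and 2 in the Otub1 list (14.3% and 28.6%).

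The genes most like *Uchl1* were taken as those at the smallest distance over the log2 ratios of Nrf1 and Nrf2 to LacZ, among the 8451 genes that averaged 100 or more in 1 of the groups of each table. The nearest was *Hfe2*, the gene of the muscle-expressed bone morphogenetic protein co-receptor hemojuvelin, at a distance of 0.23, with log2 ratios of 3.68 and 3.03. It had 92.5, 69.6 and 96 normalized reads with LacZ, 1160, 1074 and 1078 with Nrf1, and 706, 703 and 705 with Nrf2, in the same order of groups as *Uchl1*. Then came *Lynx1*, a modulator of nicotinic receptors (distance 0.85), *Panx2*, a pannexin channel gene (0.98), *Ckmt2*, the mitochondrial creatine kinase of striated muscle (1.19), and *Mgst1*, a microsomal glutathione transferase (1.41). *Lynx1* had log2 ratios of 2.97 and 2.86, *Panx2* of 2.86 and 3.06, *Ckmt2* of 2.73 and 2.37, and *Mgst1* of 2.52 and 2.31. In *Lynx1* and *Panx2* the Nrf1 and Nrf2 libraries overlapped, unlike in *Uchl1*. These genes were chosen for their ratios, so the ratios carry no test.

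**Figure D5:**
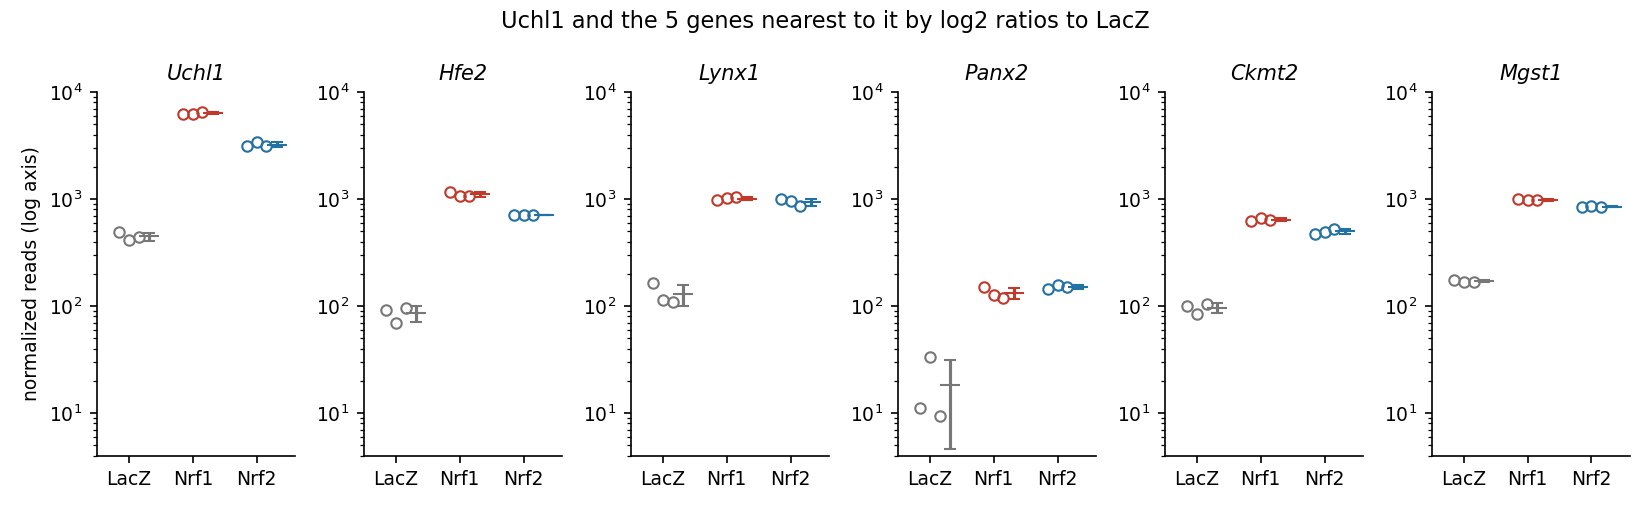
Normalized reads in each library (log axis) for *Uchl1* and the 5 genes nearest to it by their log2 ratios to LacZ, with circles for libraries and mean ± SD (n = 3); the lower SD bar of *Panx2* with LacZ is close to the axis floor. *Hfe2* shows the same order of groups as *Uchl1*, from 69.6 to 96 with LacZ to 1074 to 1160 with Nrf1, while *Panx2* rests on 9.48 to 33.7 normalized reads in the LacZ libraries.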

How the data were processed

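Poly(A) RNA of 9 NRVM libraries was sequenced as 75-bp single-end reads. The authors ran FastQC 0.11.4 for quality, HISAT2 2.0.4 for alignment to rat Rnor_6.0, SAMtools 0.1.18 for removing duplicates, featureCounts 1.6.0 for counting and edgeR 3.20.5 for comparing groups. The authors deposited 3 tables, 1 per pair of groups, whose signal is the mean per group of counts divided by size factors. Their columns of fold changes, p-values and adjusted p-values were not used. In both tables that hold LacZ, 26 symbols written as dates were left out. The organism field of the labels says mouse, while the protocols and the genome build say rat.

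Each mean is a sum of whole reads in 3 libraries, each times its own step, and each group occurs in 2 tables with different steps, so the reads per library could be solved. A unique solution was found for 14654 of 14657 genes in LacZ, 14576 of 14579 in Nrf1 and 14746 of 14746 in Nrf2, with at most 5.63e-06 between a solved and a deposited mean, and size factors recomputed from the reads differed by at most 0.011%. The solver was tested on simulated data. Libraries are numbered by depth, and their match to the replicate numbers of the labels is not known.

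Log2 ratios are those of the deposited means, called past a fold of 1.5 for genes averaging 10 or more in 1 group. This test was planned on group means alone, and limma 3.58.1 (R 4.3.3) on log2(normalized reads + 1) with an intensity trend was added for standard errors and Benjamini-Hochberg adjusted p-values over all genes (threshold 0.05). The sum of 1 slightly understates changes of low genes. Alternatives were a stricter fold of 2 or a looser one of 5 to 4, other scalings, filters and pseudocounts, leaving out each library, size factors over 9 libraries and voom weights, the last pair added later. The 8 genes and all lists were chosen with earlier results of these data known. Named were the 8 genes, the 5 highest and 5 lowest other deubiquitinases and the extremes of each partner list by the log2 ratio of Nrf1 over LacZ (mean of at least 100), *Psmd14*, *Psmd2*, *Adrm1*, the ubiquitin genes, *Nfe2l2* and the 5 genes nearest to *Uchl1*. Some genes that this rule names are not reported here. *Rad23b*, *Eif3f*, *Actc1*, *Myh7*, *Csf1r* and the neuron and neuroendocrine genes named were chosen after their values were seen.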

Additional observations from a re-analysis of the deposited data

How the results depend on the processing

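No paired analysis was possible because the solved libraries carry no replicate number. A fold of 2, or a looser one of 5 to 4, moved the counts, which take higher and lower genes together. The 8 genes include *Uchl1*, chosen for its rise with Nrf1, and shares of all genes were counted at 1.5 alone. With Nrf1 over LacZ, 3 of the 8 lay past 1.5 and 5 past the looser fold, all higher. At 1.5 this was beside 11.9% of all genes higher and 18.1% lower. With Nrf2 over LacZ, 2 lay past 1.5, 1 past 2 and 4 past the looser fold, all higher, beside 9.73% and 10.9% at 1.5. With Nrf2 over Nrf1, 2 lay past 1.5 (*Uchl1* and *Usp5*, lower with Nrf2) and 0 past 2, beside 12.3% and 5.15% at 1.5. At the looser fold 5 were counted, *Uchl3* higher and the others lower with Nrf2. Among the other deubiquitinases the counts were 13 at 1.5 (11 higher and 2 lower), 4 at 2 and 21 at the looser fold with Nrf1 over LacZ. They were 7 (6 higher and 1 lower), 1 and 20 with Nrf2 over LacZ. With Nrf2 over Nrf1 they were 6 (2 higher and 4 lower), 1 and 17. Among all partner genes together they were 33 at 1.5 (31 higher and 2 lower) and 21 at 2 with Nrf1 over LacZ. They were 8 (7 higher and 1 lower), 1 and 25 at 1.5, 2 and the looser fold with Nrf2 over LacZ. With Nrf2 over Nrf1 they were 24 (0 higher and 24 lower), 6 and 37. Leaving out each library kept the member counts at 3, 2 and 2, and the counts of other deubiquitinases at 13 to 15, 7 to 8 and 4 to 7.

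The sign turned only for values that did not pass the test. *Uchl3* with Nrf1 over LacZ was -0.01 when centred on the median gene, -0.02 when scaled by summed means and -0.08 to 0.15 when libraries were left out (-0.02 without the shallowest LacZ library and -0.08 without the middle Nrf1 library). With Nrf2 over LacZ, scaling by summed means gave -0.002 for *Bap1* and -0.05 for *Usp7*. The calls of *Uchl3*, *Uchl5*, *Usp7* and *Otub1* that changed are given with their values in the report. Over all alternatives 267 member ratios kept direction and call (or, where untested, their value within 1 SD), 11 lost the call and 2 gained it. The search for an antioxidant response motif in promoters was not run, since the sequences at hand were not of rat. At 68 to 159 reads per library, a change of *Uchl3* had a standard error of 0.13 to 0.14 on the log2 scale.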

Other observations

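The solved reads bear on one step of the processing. The methods state that duplicate reads were removed, which for single-end reads leaves at most 1 read per start position and strand. *Uchl1* had 6639 reads in the deepest Nrf1 library, while its longest transcript in the mouse annotation (GENCODE vM21) has 1177 bases, and *Col1a1*, a fibrillar collagen gene chosen here after its values were seen, reached 91047 reads in a library beside 5930 bases. Rat transcript lengths were not used here. On these lengths the deposited values of both genes hold many reads that share a start position.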
